A study of Mus musculus with 4 samples.

Results

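The microRNA genes of the mouse were examined for chromatin accessibility in embryonic stem cells that overexpress Zscan4. The members were the rows of the deposited table whose symbol is a microRNA gene (Mir or Mirlet followed by a number), with 6 host gene rows left out. They came to 984 rows of 46406. Their hairpins were 39 to 147 bp long (median 81 bp), so a single row collects few reads and the results below rest on reads summed over rows. The libraries were made by ATAC-seq, in which the Tn5 transposase cuts and tags open DNA, from J1 cells, a line of mouse embryonic stem cells from blastocysts of a 129 strain. In the libraries Zscan4 OE 1 and 2, Zscan4, a zinc finger protein of the 2-cell embryo, was overexpressed. They were set against control 1 and 2, labelled wild type. All 4 were grown feeder-free to the same labelled passage, PN+8. The labels give neither the construct nor which Zscan4 copy was overexpressed, nor whether replicates were separate cultures, so a p-value speaks of the spread among 4 libraries, and that spread may be technical. The series title ties Zscan4 to breakdown of co-repressors and to open chromatin, and the comparison asks how far the microRNA genes share in it.

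A microRNA is cut from a hairpin in a longer primary transcript, and its mature strand guides silencing of messenger RNAs that pair with its seed, bases 2 to 8. Mouse embryonic stem cells are known for the Mir290-Mir295 cluster, whose products speed the passage from G1 to S phase, while the Mir302-Mir367 cluster is known from the epiblast and primed pluripotent cells. The Mir17-Mir92 cluster is known for promoting proliferation. The let-7 family promotes differentiation, and in stem cells its maturation is blocked by Lin28. ATAC-seq reads the DNA of the hairpin and neither the primary transcript nor the mature microRNA. The reads of a hairpin row come from the locus, and most regulatory DNA of these genes lies outside the rows.

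Sequences are from RefSeq (GRCm38.p6), which gave a mature strand for 871 of the 984 rows. Mature strands of the stem cell clusters are shown first because 5 of those shown share 1 seed across 2 chromosomes. Capitals mark the seed.
miR-291a-3p: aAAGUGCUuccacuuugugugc
miR-294-3p: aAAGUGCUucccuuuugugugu
miR-295-3p: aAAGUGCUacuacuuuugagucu
miR-302b-3p: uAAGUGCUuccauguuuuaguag
miR-302d-3p: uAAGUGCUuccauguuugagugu
These 5 carry the seed AAGUGCU. The first 3 come from chromosome 7 and the last 2 from chromosome 3. The next 5 have other seeds: AAGUGCC in miR-290a-3p, AAGUGCA in miR-291b-3p, GUGCCGC in miR-293-3p, and AAAGUGC in the Mir17-Mir92 products miR-17-5p and miR-20a-5p.
miR-290a-3p: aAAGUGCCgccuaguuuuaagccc
miR-291b-3p: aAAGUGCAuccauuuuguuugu
miR-293-3p: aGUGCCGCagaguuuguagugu
miR-17-5p: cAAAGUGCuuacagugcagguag
miR-20a-5p: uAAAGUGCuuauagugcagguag
The let-7 strands stand for the family that opposes the stem cell clusters.
let-7b-5p: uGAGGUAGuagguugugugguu
let-7e-5p: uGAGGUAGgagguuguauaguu
Mir290a and Mir8114 are shown with the start of transcription they lie near or at, since position relative to a start went with the reads (below). They are examples: other hairpins also lie at a start, such as Mir19b-1 at the start of its host gene Mir17hg. The window of D7Ertd143e, a noncoding RNA gene whose annotated start lies 76 bp past the end of Mir290a and upstream of the 7 hairpins from Mir291a to Mir295, is chr7:3218534-3218833 on the plus strand, 250 bases before to 50 after its annotated start, with the 83 bases of the Mir290a hairpin in capitals.
D7Ertd143e start: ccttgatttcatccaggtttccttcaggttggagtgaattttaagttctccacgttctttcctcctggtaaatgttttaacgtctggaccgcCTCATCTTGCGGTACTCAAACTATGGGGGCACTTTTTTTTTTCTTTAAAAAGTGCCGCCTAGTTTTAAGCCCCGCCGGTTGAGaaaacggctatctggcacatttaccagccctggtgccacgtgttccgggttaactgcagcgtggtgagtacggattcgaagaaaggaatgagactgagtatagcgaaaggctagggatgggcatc
The window of Glul, the glutamine synthetase gene, is chr1:153899679-153899978 on the plus strand, with the 53 bases of Mir8114 that fall in it in capitals.
Glul start: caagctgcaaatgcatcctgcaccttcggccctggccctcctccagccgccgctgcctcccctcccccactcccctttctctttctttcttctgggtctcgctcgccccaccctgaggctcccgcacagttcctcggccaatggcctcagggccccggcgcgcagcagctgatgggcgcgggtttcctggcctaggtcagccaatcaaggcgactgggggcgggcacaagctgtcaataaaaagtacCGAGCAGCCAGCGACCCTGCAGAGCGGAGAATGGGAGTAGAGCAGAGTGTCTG
The first window holds 14 CG dinucleotides and the second 17, against a median of 7 over 32851 windows of RefSeq starts.

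Sequencing was shallow, with library totals of 3605774 and 4899494 reads in Zscan4 OE 1 and 2, against 1061428 and 2903602 in control 1 and 2. All rows together held 12.8% and 9.93% of those reads in Zscan4 OE, against 12.4% and 9.38% in controls. The libraries numbered 1 thus had the larger share in both groups. The 3 reads that a count of 0 allows (95%, counting error only) correspond to 0.832 and 0.612 RPM (reads over the library total, times 1000000) in Zscan4 OE 1 and 2, and to 2.83 and 1.03 RPM in control 1 and 2. The 10 embryonic stem cell markers all had reads, but so did all 6 fibroblast and all 8 differentiation markers. Having reads therefore does not check the labelled cell type. The stem cell markers had 2.26 and 1.42 RPKM in Zscan4 OE, against 1.66 and 1.11 RPKM in controls. RPKM is RPM per 1000 bp of row, rescaled to each library's own total. The 6 fibroblast markers had 0.948 and 0.868 RPKM in Zscan4 OE, against 1.0 and 1.08 RPKM in controls. The 8 differentiation markers had 1.06 and 0.862 RPKM in Zscan4 OE, against 1.47 and 1.04 RPKM in controls. Of the 5 2-cell markers in the table, 3 had a read. The list had 0.111 and 0.0408 RPKM in Zscan4 OE, against 0.188 and 0.0689 RPKM in controls. In RPM this was 0.555 and 0.204 in Zscan4 OE, against 0.942 and 0.344 in controls, each below the 3 reads given above. Zscan4c and Zscan4d were at 0 in all 4 libraries, so the overexpression could not be checked here. An ATAC-seq read at the endogenous gene would not measure a transgene.

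MicroRNA rows held 1126 and 946 reads in Zscan4 OE 1 and 2, against 260 and 530 in control 1 and 2. Scaled to library totals, this was 312 and 193 RPM in Zscan4 OE, against 245 and 183 RPM in controls. The groups overlapped: control 1 lay above Zscan4 OE 2. The means were 253 ± 84.3 RPM in Zscan4 OE and 214 ± 44.1 RPM in controls (SD, n = 2 each), a ratio of 1.18, and a two-sided exact permutation test gave p = 0.667, where 2 against 2 libraries cannot go below 0.333. Within the libraries numbered 1 the ratio was 1.27, and within those numbered 2 it was 1.06. Without Zscan4 OE 1 the direction turned (log2 ratio -0.15). Counted against the reads in all rows instead of the library total, the ratio was 1.12.

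Per length, the microRNA rows held more reads than the other rows with a read. The summed density of the microRNA rows was 3.82 and 2.36 RPKM in Zscan4 OE, against 2.99 and 2.23 RPKM in controls. That was 3.50 and 2.79 times the density of all other rows with a read in Zscan4 OE, and 2.84 and 2.79 times it in controls. The ratio was above 1 in 4 of 4 libraries, and a two-sided exact sign-flip test over libraries gave p = 0.125, the smallest possible with 4. Row length goes with this difference, since other rows are mostly long. The 1204 other short RNA rows of 50 to 150 bp were RefSeq small nuclear and small nucleolar RNA genes without a numbered Snora or Snord symbol. Against them, the microRNA density was 1.56 and 1.30 times as high in Zscan4 OE. In controls it was 1.41 and 1.48 times as high (exact sign-flip p = 0.125 over the 4 libraries). Those rows were longer on average, with 139577 bp over 1204 rows, against 81847 bp over 984 microRNA rows. Length thus differed here too, and its part in the ratio was not tested. The 113 rows with a numbered Snora or Snord symbol are small nucleolar RNA genes, which often sit in introns close to active promoters. The microRNA density was 0.478 and 0.626 of theirs in Zscan4 OE. In controls it was 0.550 and 0.861 of theirs (exact sign-flip p = 0.125 over the 4 libraries).

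**Figure D1:**
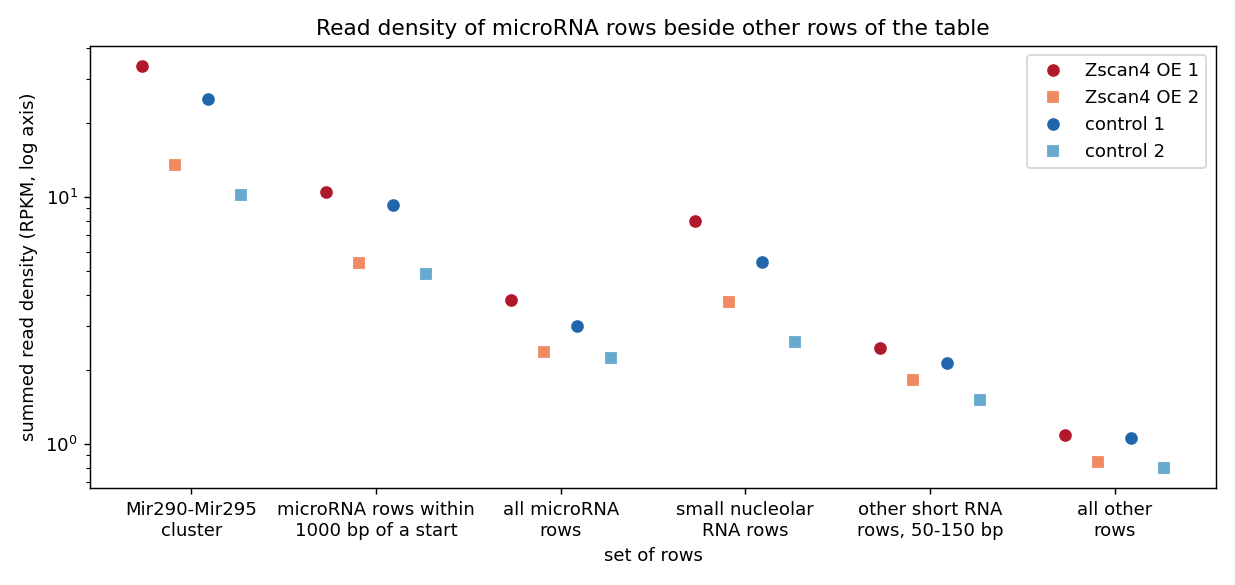
Summed read density (RPKM) of microRNA rows and other classes of rows, one point per library, with Zscan4 OE left of control. MicroRNA rows lie at 2.23 to 3.82 RPKM in each library. They lie above the other short RNA rows and below the small nucleolar RNA rows with a Snora or Snord symbol.

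The reads were spread thinly. Of the 984 rows, 109 had no read in any library, 280 had 1 read over all 4, 453 had 2 to 4, 142 had 5 or more and 14 had 20 or more. The median was 2 reads and the highest 52, and 51 rows had a read in every library. The 10 rows with most reads held 12.0% of the 2862 reads. A row with a read was found 532 and 520 times in Zscan4 OE 1 and 2, against 182 and 355 times in control 1 and 2. Of these, 299 and 314 in Zscan4 OE, and 145 and 254 in controls, rested on exactly 1 read. Thinned by expectation to the library total of control 1, the rows reached came to 233 and 169 in Zscan4 OE, against 182 and 162 in controls, while the share of reads in rows still differed between libraries. Thinned to the reads in rows of control 1, they came to 227 and 203 in Zscan4 OE, against 182 and 203 in controls. The ratio of group means was 1.96 as sequenced, 1.17 at equal library total and 1.12 at equal reads in rows, and under both thinnings the groups overlapped.

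**Figure D2:**
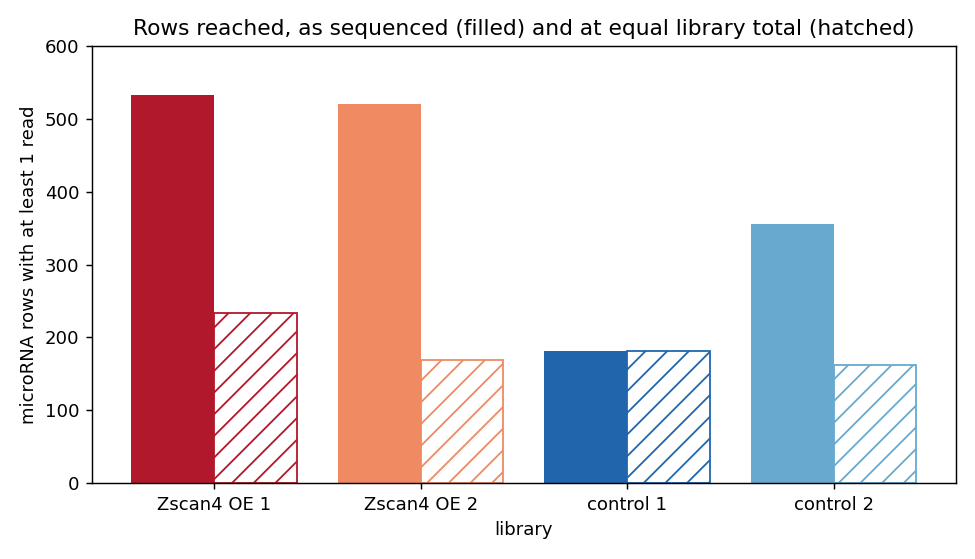
MicroRNA rows with at least 1 read in each library, Zscan4 OE left of control, as sequenced (filled) and at the library total of control 1 (hatched). The filled bars are 532 and 520 in Zscan4 OE against 182 and 355 in controls, and the hatched bars are 233 and 169 against 182 and 162.

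The whole table was tested row by row with limma on log2(RPKM + 0.1), and 42989 rows passed the filter of a mean RPKM of at least 0.1. All 875 microRNA rows with a read passed, because 1 read in so short a row exceeds that mean, and the 109 rows at 0 did not. No row of the table had an adjusted p under 0.05 (0% of tested rows in either direction), so 0 microRNA rows were called higher and 0 lower. With 2 libraries against 2 and few reads per row, a lack of calls does not show that no row changed. The lowest adjusted p of a microRNA row was 0.156 in limma. At an unadjusted p under 0.05, 147 microRNA rows (16.8%) were higher in Zscan4 OE and 16 (1.83%) lower, where the whole table had 5.09% higher and 1.33% lower. All 147 had no read in either control, the shallower libraries. Of all microRNA rows, 147 were at 0 in both controls with a read in both Zscan4 OE libraries, with a median of 3 reads and at most 9, and 11 were the reverse. Among rows with 2 to 4 reads, 28.9% of microRNA rows and 16.5% of other rows were higher at unadjusted p under 0.05, among rows with 5 to 19 reads 12.5% and 5.80%, and among rows of 20 reads or more 0 of 14 and 1.02%. The tested microRNA rows had a median log2 difference of 2.36, against 0.28 over all tested rows. By reads per row, the median was 2.05 in microRNA rows with 5 to 19 reads, against 0.48 in other rows, and 0.26 in the 14 microRNA rows with 20 reads or more, against 0.14 in other rows. In a fit over rows with 5 reads or more, it was 1.35, against 0.21 over all such rows. With a pseudocount well under 1 read of so short a row, a difference against a library at 0 is inflated, and with pseudocount 1 the median of the tested microRNA rows was 0.91, while the summed reads gave a log2 ratio of 0.24. Calls appeared when 1 Zscan4 OE library was left out, with 246 of 739 tested microRNA rows (33.3%) higher and 5 (0.677%) lower without Zscan4 OE 1, where the whole table had 10.5% higher and 0.0218% lower. Without Zscan4 OE 2, 203 of 726 (28%) were higher and 1 (0.138%) lower, where the whole table had 9.46% higher and 0.00490% lower. These fits rest on a lone library assumed to vary like the controls, so their residual spread comes from the controls alone. A row at 0 in both controls has no such spread, and it passes the filter only through the lone library. A read in so short a row can then be called almost by construction. The shares called in these fits therefore cannot show an excess of changed microRNA rows over the table. Leaving out either control gave 0. Fitted over rows with 20 reads or more alone, limma called 0 of 14 microRNA rows, where 4 rows of the table (0.0210%) were higher and 1 (0.00526%) lower.

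At each of the read cut-offs below, the share of microRNA rows without overlap was no higher than that of the table. A row with 1 read in all cannot qualify in either direction. Such rows were 280 of the 875 microRNA rows with a read, and 3416 of the other rows tested by limma. The shares over rows with a read are thus not matched for reads, and rows of 2 to 4 reads were not counted apart. Among the 875 microRNA rows with a read, 159 (18.2%) lay higher in both Zscan4 OE libraries than in both controls, against 19.4% of all 44279 rows with a read, and 39 (4.46%) lay lower, against 9.84%. Among the 14 with 20 reads or more, 2 (14.3%) lay higher, against 20% of all rows with that many reads, and 0 lay lower, against 11.0%. Among the 142 with 5 reads or more, 28 (19.7%) lay higher, against 20.8%, and 12 (8.45%) lower, against 11.8%.

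The Mir290-Mir295 cluster had the highest density of the 16 lists of microRNA rows in 4 of 4 libraries. It lies on chromosome 7, its last hairpin 1989 bp from the D7Ertd143e start, and most of its hairpins fall inside the span of the coding gene Nlrp12, an inflammasome-family gene annotated over the same stretch. Its 9 rows held 83 and 45 reads in Zscan4 OE 1 and 2, against 18 and 20 in control 1 and 2. This was 23.0 and 9.18 RPM in Zscan4 OE, against 17.0 and 6.89 RPM in controls. The exact Poisson 95% intervals were 18.3 to 28.5 and 6.70 to 12.3 RPM in Zscan4 OE, which do not overlap, and 10.1 to 26.8 and 4.21 to 10.6 RPM in controls. The 2 Zscan4 OE libraries thus differed beyond counting error, and the libraries numbered 1 were higher in both groups. The ratio of means was 1.35, it was 1.36 and 1.33 within the numbers 1 and 2, and the groups overlapped (exact permutation p = 0.667). It fell below 1 without control 2 (log2 -0.07) or without Zscan4 OE 1 (log2 -0.38).

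Per length the cluster stood at 33.9 and 13.5 RPKM in Zscan4 OE, against 25.0 and 10.1 RPKM in controls. That was 9.51 and 5.97 times the density of the other 975 microRNA rows in Zscan4 OE, and 8.89 and 4.69 times it in controls, above 1 in 4 of 4 libraries (exact sign-flip p = 0.125). It was 2.08 to 3.25 times the density of microRNA rows near a coding start, again in 4 of 4 libraries. Every one of its 9 rows had a read, and 7 or more had one in each library.

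Within the cluster the fitted differences of single rows pointed both ways, and rows were not tested against each other. Mir295, the last hairpin (chr7:3220773-3220841), had 20 and 13 reads in Zscan4 OE 1 and 2, against 3 and 2 in control 1 and 2. Scaled, that was 80.4 and 38.5 RPKM in Zscan4 OE, against 41.0 and 9.98 RPKM in controls, so control 1 lay above Zscan4 OE 2. Its log2 difference was 1.45 with SE 1.56, and limma's adjusted p was 0.869. Mir291b (chr7:3219482-3219560) had 11 and 9 reads in Zscan4 OE, against 0 and 2 in controls. It was one of the pair of microRNA rows of 20 reads or more without overlap, at 38.6 and 23.3 RPKM in Zscan4 OE, against 0 and 8.72 RPKM in controls, with a log2 difference of 5.0, SE 2.23 and adjusted p 0.869 (limma). That fitted difference depends on the pseudocount, since control 1 is at 0. Mir294 had 16 and 6 reads in Zscan4 OE, against 3 and 1 in controls. Mir293 had 8 and 6 reads in Zscan4 OE, against 2 and 0 in controls. These 4 downstream rows together held 55 and 34 reads in Zscan4 OE, against 8 and 5 in controls, or 15.3 and 6.94 RPM in Zscan4 OE, against 7.54 and 1.72 RPM in controls. The groups still overlapped. Per 1000000 reads in all rows they did not, at 119 and 69.9 in Zscan4 OE, against 61.0 and 18.4 in controls. The split of the cluster was chosen after its values were seen and carries no test.

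The upstream rows had no such excess in their summed RPM, and their difference from the downstream rows was not tested. Mir290a had 2 and 3 reads in Zscan4 OE, against 2 and 1 in controls. Mir291a had 15 and 5 reads in Zscan4 OE, against 4 and 6 in controls. Mir292 had 6 and 0 reads in Zscan4 OE, against 1 and 4 in controls. Summed over Mir290a to Mir292b, Zscan4 OE had 28 and 11 reads, or 7.77 and 2.25 RPM, and controls had 10 and 15 reads, or 9.42 and 5.17 RPM. Mir290b (1 and 3 reads in Zscan4 OE, against 2 and 1 in controls) lies antisense inside Mir290a, and Mir292b (4 and 0 reads, against 1 and 3) inside Mir292. The reads of such pairs cannot be told apart without strand, and a read may have been counted in both rows. Without the antisense rows, the cluster's ratio was 1.54, with 78 and 42 reads in Zscan4 OE and 15 and 16 in controls.

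**Figure D3:**
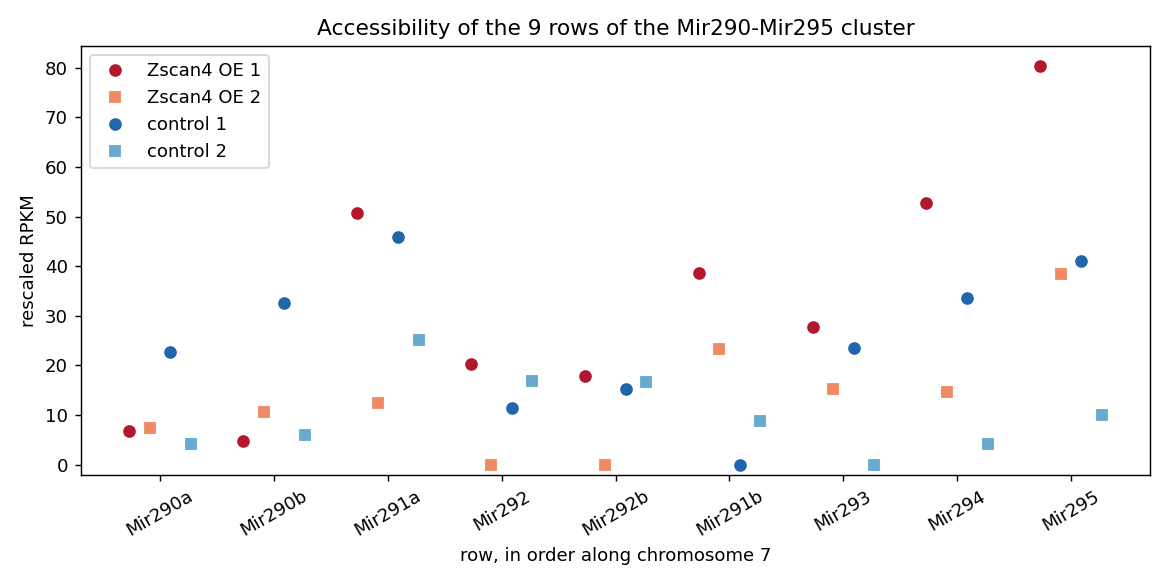
Rescaled RPKM of the 9 rows of the Mir290-Mir295 cluster in order along the chromosome, one point per library. Mir295 reaches 80.4 and 38.5 RPKM in Zscan4 OE against 41.0 and 9.98 RPKM in controls, while Mir290a lies at 6.68 and 7.38 RPKM in Zscan4 OE against 22.7 and 4.15 RPKM in controls.

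By the RefSeq mature strands found here, 5 rows had a product with the seed AAGUGCU (Mir291a, Mir294, Mir295, Mir302b and Mir302d). A mature strand was found for 871 of the 984 rows, so this set may be incomplete. Its rows held 51 and 28 reads in Zscan4 OE, against 11 and 10 in controls. Their RPM was 14.1 and 5.71 in Zscan4 OE, against 10.4 and 3.44 in controls, and the groups overlapped (exact permutation p = 0.667). Most of these reads came from chromosome 7. The 5 rows of the Mir302-Mir367 cluster on chromosome 3 held 1 and 7 reads in Zscan4 OE, against 1 and 3 in controls. Mir302a had 1 and 2 reads in Zscan4 OE, against 0 and 1 in controls. Mir302b had 0 and 3 reads in Zscan4 OE, against 1 and 1 in controls. Mir302c had a read in control 2 alone, and Mir302d and Mir367 a read each in Zscan4 OE 2 alone. The Mir290-Mir295 density was 43.0 and 3.33 times that of Mir302-Mir367 in Zscan4 OE, and 9.33 and 3.46 times it in controls, higher in 4 of 4 libraries (exact sign-flip p = 0.125), where the values of Zscan4 OE 1 and control 1 each rest on 1 read in the smaller cluster.

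The Mir17-Mir92 cluster on chromosome 14 held 18 and 8 reads in Zscan4 OE, against 2 and 1 in controls, over 6 rows. All 6 lie within 636 bp of the annotated start of their host gene Mir17hg. That start is not among the coding starts, so they count as outside coding genes below. This was 4.99 and 1.63 RPM in Zscan4 OE, against 1.88 and 0.344 RPM in controls. The ratio of means was 2.97 and the groups overlapped, since control 1 lay above Zscan4 OE 2 (exact permutation p = 0.667). Against reads in all rows they did not overlap. Mir19a, with 5 and 0 reads in Zscan4 OE, was at 0 in controls. Mir18 had 4 and 1 reads in Zscan4 OE, and Mir19b-1 and Mir92-1 had 2 and 1 reads each, with none in controls. Mir20a had 4 and 1 reads in Zscan4 OE, against 1 and 1 in controls, and Mir17 had 1 and 4 in Zscan4 OE, against 1 and 0 in controls. The related Mir106a-Mir363 cluster on the X chromosome had 6 and 12 reads in Zscan4 OE, against 4 and 1 in controls, a ratio of 1.0. The other relative, Mir106b-Mir25, had 3 and 1 reads in Zscan4 OE, against 2 and 1 in controls. The 7 rows found with the seed AAAGUGC by their RefSeq mature strand held 9 and 13 reads in Zscan4 OE. In controls they held 5 and 4 reads, and their RPM overlapped between the groups.

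The let-7 family was sparse, with 8 of 11 rows holding a read. It had 8 and 8 reads in Zscan4 OE, against 3 and 12 in controls. Scaled, this was 2.22 and 1.63 RPM in Zscan4 OE, against 2.83 and 4.13 RPM in controls. Both Zscan4 OE libraries lay below both controls, with a ratio of means of 0.553 (exact permutation p = 0.333, the smallest possible). Yet the Poisson interval of control 1, 0.583 to 8.26 RPM, holds both Zscan4 OE values. That of control 2, 2.14 to 7.22 RPM, holds Zscan4 OE 1 but not Zscan4 OE 2, whose own interval, 0.705 to 3.22 RPM, overlaps it. Without its 3 largest rows the log2 ratio shrank to -0.12 (exact permutation p = 1). Mirlet7b and Mirlet7e each had 1 and 1 reads in Zscan4 OE, against 1 and 3 in controls. Mirlet7d had 0 and 0 reads in Zscan4 OE, against 1 and 1 in controls. Mirlet7g had 2 reads in control 2 and none elsewhere. Mirlet7i had 1 and 3 reads in Zscan4 OE and Mirlet7a-1 had 1 and 1, with none in controls. Mirlet7c-1 had 2 and 1 reads in Zscan4 OE, against 0 and 2 in controls, and Mirlet7f-2 had 2 and 1, against 0 and 1. Mirlet7f-1, Mirlet7c-2 and Mir98 had no read. The Mir290-Mir295 density was 15.5 and 8.43 times that of let-7 in Zscan4 OE, and 8.99 and 2.50 times it in controls.

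**Figure D4:**
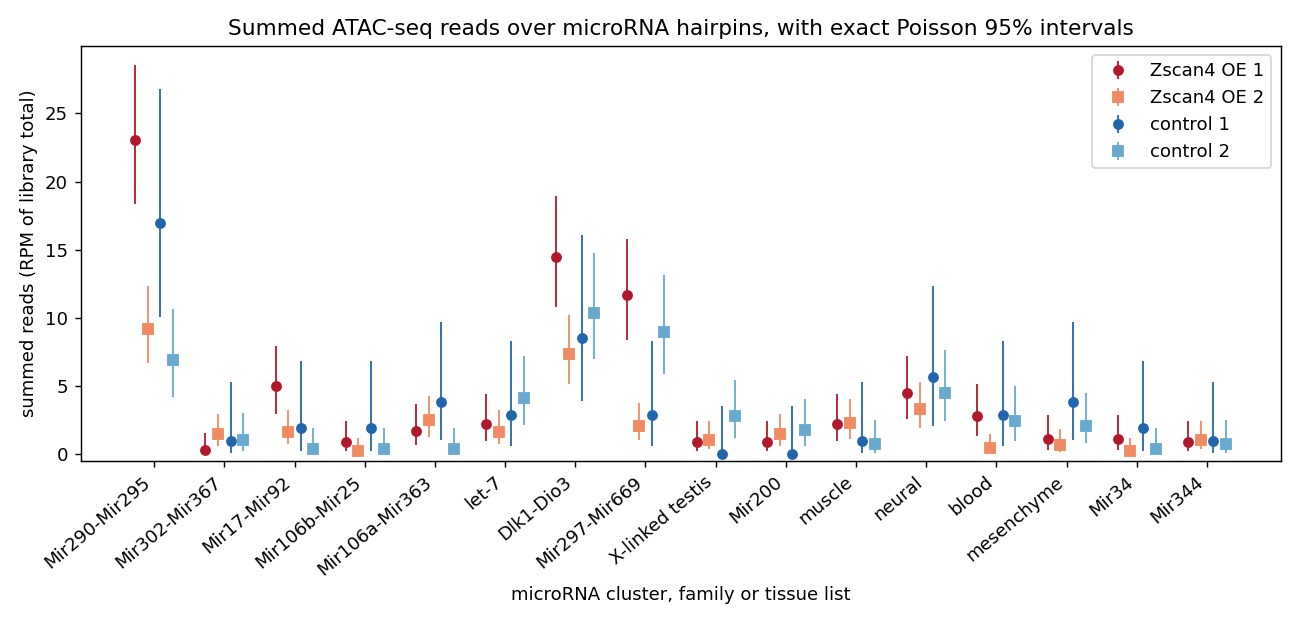
Summed RPM of microRNA lists in each library, Zscan4 OE left of control. Mir290-Mir295 lies at 23.0 and 9.18 RPM in Zscan4 OE against 17.0 and 6.89 RPM in controls, and let-7 at 2.22 and 1.63 RPM in Zscan4 OE against 2.83 and 4.13 RPM in controls.

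Of 16 lists, 4 did not overlap between the groups, 1 higher and 3 lower. Among all single rows with a read, 19.4% lay higher and 9.84% lower. A list is a sum over rows, so these shares are no matched background for it. Against reads in all rows, 2 lists lay higher and 4 lower, with Mir17-Mir92 and the blood rows added. The 10 muscle rows, with Mir1a, Mir133 and their relatives, were the list that lay higher in both Zscan4 OE libraries, at 8 and 11 reads in Zscan4 OE and 1 and 2 in controls. Their RPM was 2.22 and 2.25 in Zscan4 OE, against 0.942 and 0.689 in controls, a ratio of 2.74, and without the 3 largest rows the log2 ratio was 0.52 in place of 1.45. Besides let-7, the 11 neural and the 9 mesenchymal rows lay lower. The neural rows, with Mir9, Mir124 and Mir128, had 16 and 16 reads, or 4.44 and 3.27 RPM, in Zscan4 OE, against 6 and 13 reads, or 5.65 and 4.48 RPM, in controls. The mesenchymal rows, with Mir143, Mir145, Mir199 and Mir214, had 4 and 3 reads, or 1.11 and 0.612 RPM, in Zscan4 OE, against 4 and 6 reads, or 3.77 and 2.07 RPM, in controls. Each of these tests gave p = 0.333 by exact permutation, which is the smallest possible, and in all 3 lists the Poisson intervals of the 2 groups overlapped. The neural difference turned without its 3 largest rows (log2 0.19) and in the values as deposited (log2 0.46). The 6 fibroblast markers given above also lay lower in both Zscan4 OE libraries, the 8 differentiation markers overlapped, and the part of other cells in the mesenchymal values was not tested.

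The imprinted Dlk1-Dio3 cluster, the largest of the lists with 52 rows, had 52 and 36 reads in Zscan4 OE, against 9 and 30 in controls. Its RPM was 14.4 and 7.35 in Zscan4 OE, against 8.48 and 10.3 in controls, with overlap. The 35 rows of the Mir297-Mir669 family, near-identical copies mostly in an intron of Sfmbt2, had 42 and 10 reads in Zscan4 OE, against 3 and 26 in controls. Reads of such copies cannot be placed with certainty. Their means were 6.84 ± 6.79 RPM in Zscan4 OE and 5.89 ± 4.33 RPM in controls (SD, n = 2 each), so the spread within each group exceeded the difference. The microRNAs tied to the 2-cell-like state were sparse. Mir34a, which in mouse stem cells restrains that state, had 1 and 0 reads in Zscan4 OE, against 1 and 0 in controls. Mir34b had 2 and 0 reads in Zscan4 OE, against 1 and 1 in controls, and Mir34c had 1 and 1 reads in Zscan4 OE and none in controls. The 7 Mir344 rows held 3 and 5 reads in Zscan4 OE, against 1 and 2 in controls, or 0.832 and 1.02 RPM in Zscan4 OE, against 0.942 and 0.689 RPM in controls. Of them, Mir344-2 had 1 and 2 reads and Mir344c 2 and 1 reads in Zscan4 OE, with none in controls. Mir344g had 0 and 2 reads in Zscan4 OE, against 1 and 0 in controls, while Mir344 and Mir344b had a read each in control 2 alone, and Mir344d-1 and Mir344f none. The blood rows had 10 and 2 reads in Zscan4 OE, against 3 and 7 in controls. The Mir200 rows had 3 and 7 reads in Zscan4 OE, against 0 and 5 in controls. The X-linked testis rows had 3 and 5 reads in Zscan4 OE, against 0 and 8 in controls.

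Hairpins near the start of a coding gene held more reads per length. RefSeq positions were found for 978 rows, and 949 could be compared with starts of coding genes. The start table used had no entry for 3897 of 21389 coding genes outside chromosome 18, so a distance is an upper bound and a row counted as far may lie near a start that was not in the table. The 74 rows within 1000 bp of such a start had 10.4 and 5.42 RPKM in Zscan4 OE, against 9.25 and 4.88 RPKM in controls. Rows farther away had 3.23 and 2.11 RPKM in Zscan4 OE, against 2.39 and 2.01 RPKM in controls. The near rows were 3.23 and 2.56 times as dense as the far ones in Zscan4 OE, and 3.87 and 2.42 times in controls, above 1 in 4 of 4 libraries (exact sign-flip p = 0.125). Without the farther rows inside or within 1000 bp of a coding gene that has no entry, the near rows were 3.29 and 2.68 times as dense in Zscan4 OE, and 3.80 and 2.50 times in controls. All 74 near rows had a read. The 27 rows within 200 bp were densest, at 13.6 and 6.44 RPKM in Zscan4 OE, against 13.4 and 5.98 RPKM in controls. The 521 rows over 20000 bp away were least dense, at 3.10 and 2.04 RPKM in Zscan4 OE, against 2.01 and 1.93 RPKM in controls. The 407 of them that were also over 20000 bp from any coding gene without an entry had 2.99 and 1.87 RPKM in Zscan4 OE, against 2.10 and 1.93 RPKM in controls.

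Between the groups, rows near a start overlapped (64.9 and 33.7 RPM in Zscan4 OE, against 57.5 and 30.3 RPM in controls, exact permutation p = 0.667). The 583 rows elsewhere inside a coding gene did not overlap, at 155 and 98.2 RPM in Zscan4 OE and 97.0 and 95.1 RPM in controls. The ratio was 1.32 (exact permutation p = 0.333, the smallest possible), it was 1.59 and 1.03 within the numbers 1 and 2, and against reads in all rows the groups overlapped. The 292 rows outside coding genes had 80.7 and 55.9 RPM in Zscan4 OE, against 77.3 and 51.7 RPM in controls, and overlapped. Rows inside a coding gene were 1.02 and 0.930 times as dense as those outside in Zscan4 OE, and 0.666 and 0.975 times in controls (exact sign-flip p = 0.25), above 1 in 1 of 4 libraries.

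**Figure D5:**
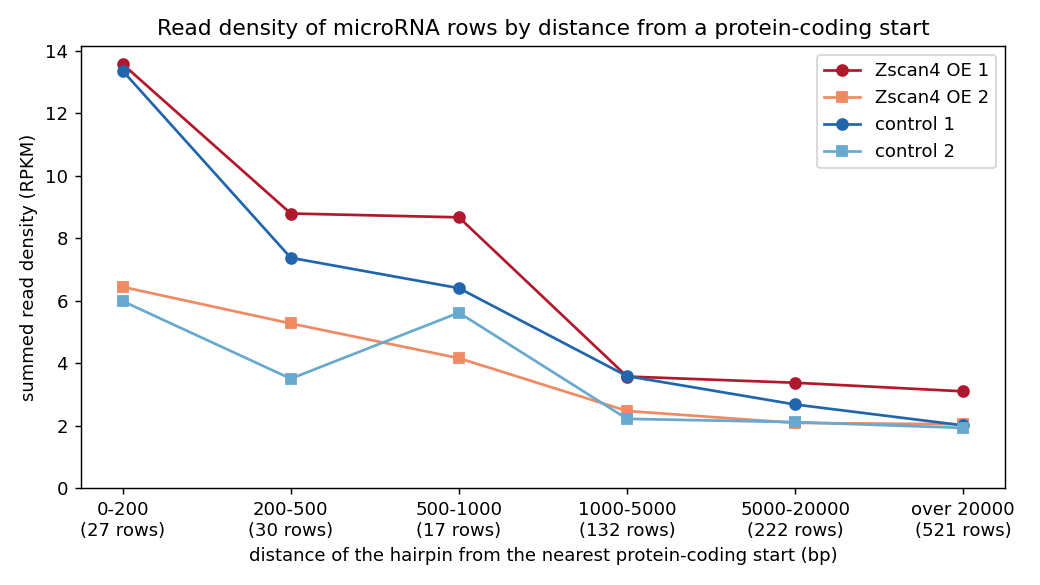
Summed read density (RPKM) of microRNA rows by distance in bp from the nearest start of a coding gene in the table used, one line per library. The density was 5.98 to 13.6 RPKM within 200 bp and 1.93 to 3.10 RPKM beyond 20000 bp, and the libraries numbered 1 lie above those numbered 2 near starts.

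Of the 14 rows with 20 reads or more, 5 lay within 1000 bp of the start of a coding gene and 4 in the Mir290-Mir295 cluster. Mir8114 (chr1:153899926-153900036), at the Glul start shown above, had the most, with 18 and 11 reads in Zscan4 OE and 14 and 9 in controls. Scaled, this was 45.0 and 20.2 RPKM in Zscan4 OE, against 119 and 27.9 RPKM in controls, a log2 difference of -0.93 with SE 1.82 and adjusted p 0.948 (limma). The groups overlapped and the sign turned without control 1. Mir1938, 378 bp from the start of Ifrd1, had 17 and 9 reads in Zscan4 OE, against 4 and 4 in controls. Mir1945, 43 bp from the start of the translation termination factor gene Gspt1, had 15 and 11 reads in Zscan4 OE, against 4 and 4 in controls. Mir5627, 245 bp from the start of the chaperone gene Dnajb9, had 15 and 8 reads in Zscan4 OE, against 5 and 5 in controls. Mir1894, 693 bp from the start of Ppp1r10, had 13 and 9 reads in Zscan4 OE, against 5 and 4 in controls. Mir1983 shares its place with an isoleucine tRNA gene and had 13 and 11 reads in Zscan4 OE, against 7 and 6 in controls, so its reads cannot be told apart from that tRNA's. Scaled to depth, all 5 overlapped between the groups, with log2 differences of -0.37 to 0.42. Mir6347, 4998 bp from the start of Uck2, had 11 and 9 reads in Zscan4 OE, against 7 and 2 in controls.

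Mir6349 (chr1:39186896-39186992), 7280 bp from the start of the circadian gene Npas2, was the other row of 20 reads or more without overlap. It had 11 and 9 reads in Zscan4 OE, against 1 and 3 in controls, or 31.5 and 18.9 RPKM in Zscan4 OE, against 9.71 and 10.7 RPKM in controls. Its log2 difference was 1.25 with SE 0.82 and adjusted p 0.869 (limma), higher in 2 of 2 libraries. Mir7650, without a RefSeq position, had 13 and 6 reads in Zscan4 OE, against 2 and 0 in controls, and Mir128-2, in the coding gene Arpp21, had 7 and 6 reads in Zscan4 OE, against 1 and 6 in controls.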

How the data were processed

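ATAC-seq was compared between 2 Zscan4 OE and 2 control libraries of J1 cells. The values deposited by the authors are RPKM per the labels, and the submitters' processing notes name Trimmomatic, Bowtie2, featureCounts and build mm10. The sources used here give no versions, and say nothing of duplicates, of shifting reads for the Tn5 cut, of strand or of the annotation.

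The deposited RPKM used 8 library totals that rotated from row to row. Whole reads, lengths and the rotation were recovered from the printed values, and RPKM was rescaled to each library's own total. The 38361 rows with 2 or more values above 0 each allowed 1 rotation, while rows with a single such value lie outside this count. An annotated short RNA length was known for 2444 rows. Other rows took the shortest length that gave whole reads, so their reads and lengths may be understated, as may the reads in all rows. Totals were placed by the order of the rotation, taking the 1 of 8 placements with the most alike share of reads in rows (a ratio of 1.37 between libraries, against 4.17 to 10.1 elsewhere). The other 4 totals belong to none of the 4 libraries and no source used here says what they stand for, and each RPM and RPKM rests on this placement. The values allowed the annotated length in 866 of 875 microRNA rows with a read, and it was used there. The other 9 took the shortest length. The recovery was tested on simulated tables with known answers. All 8 totals were found in 20 of 20 tables with a mean of 0.8 reads per row and library, near that of the short RNA rows, and in 19 of 20 with a mean of 4.2, where a value of several reads can imitate a total. In the deposited table each total stood behind 251 to 281 single-read values, and the next candidate behind 91.

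Rows were tested with limma 3.58.1 in R 4.3.3 on log2(rescaled RPKM + 0.1), eBayes with trend, two-sided, Benjamini-Hochberg adjusted over all tested rows, threshold 0.05. The pseudocount lies below the value of 1 read in a hairpin row, so a log2 difference against a library at 0 is inflated. The design had assumed values scaled per library, and the same test was run on the rescaled values. Sums are RPM with exact Poisson 95% intervals, which cover counting error only, compared by exact permutation. Density ratios over libraries used an exact sign-flip test. In all, 40 rows overlap another microRNA row and hold 104 reads. Named were all rows of 4 clusters and families (Mir290-Mir295, Mir302-Mir367, Mir17-Mir92, let-7), the 10 rows with most reads, rows of 20 reads or more whose groups do not overlap, Mir34a and the Mir344 rows, and further rows chosen after their values were seen (Mir7650, Mir128-2, Mir34b, Mir34c). The members and lists were chosen with earlier results of these data known. Positions and sequences come from RefSeq GRCm38.p6, the assembly behind mm10. Starts on chromosome 18 (29 rows) and of 3897 other coding genes were not used here.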

Additional observations from a re-analysis of the deposited data

How the results depend on the processing

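Depth limited every single row: 733 of 875 rows with a read had fewer than 5, and the shallowest library, control 1, had 260 microRNA reads. The placement of totals and the treatment of duplicates could not be checked further. Of the values for counts, medians, sums and densities, 160 kept their direction and side of the threshold or moved little, 21 moved and 23 reversed. For the single rows Mir295, Mir291b, Mir6349 and Mir8114, 54 of 56 did so, the exceptions being Mir8114 as deposited (log2 0.54) and without control 1 (range over left-out libraries -1.97 to 0.11). The cause was not tested.

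No row was called by limma in the main setting, with 2189 higher and 573 lower at an unadjusted p under 0.05. Over rows with 20 reads or more, 4 rows were higher and 1 lower, and voom on the recovered reads gave 0 and 1, none of them a microRNA row. Leaving out each library gave 0 to 4340 rows higher and 0 to 9 lower, and 0 to 246 microRNA rows higher and 0 to 5 lower. The median log2 difference of microRNA rows less that of all rows, 2.08, was 0.82 with pseudocount 1, 3.66 with 0.01, 0.12 over rows with 20 reads or more, 1.14 over rows with 5 or more (an alternative chosen after seeing the data), 1.27 as deposited, 0.54 with voom, and 1.94 to 2.34 with a library left out. Rows reached gave a log2 ratio of 0.97 as sequenced, 0.23 at equal library total and 0.16 at equal reads in rows (chosen after seeing the data).

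Log2 ratios of sums, Zscan4 OE over control, reversed in these cases. Without the 3 largest rows, Mir106a-Mir363 was -1.55, Mir297-Mir669 -0.24 and the neural rows 0.19. Over rows with 5 reads or more, Dlk1-Dio3 was -0.093, blood 0.48 and rows outside coding genes -0.18. As deposited, the neural rows were 0.46 and blood 0.049. Against reads in all rows, Mir297-Mir669 was -0.086. With a library left out, the ranges were -0.15 to 0.55 for all microRNA rows, -0.38 to 1.23 for Mir290-Mir295, -0.87 to 2.58 for Mir106a-Mir363, -0.36 to 0.62 for Dlk1-Dio3, -1.53 to 1.28 for Mir297-Mir669, -2.68 to 0.083 for blood, -0.38 to 0.70 near a start and -0.20 to 0.40 outside coding genes. The Mir17-Mir92 and muscle sums kept their sign, at 0.55 to 3.27 and 1.24 to 1.70. The cause of these changes was not tested.

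The labels do not say that equal numbers pair libraries, and the deviations of same-numbered libraries correlated at 0.13 over rows with 20 reads or more and 0.03 over microRNA rows. With the replicate block, limma made 0 calls with an unchanged median (2.08), and of the sums Mir297-Mir669 alone changed sign (-0.045).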

Other observations

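MicroRNA rows on the X chromosome were less dense than those on autosomes. The 59 X-linked rows had 2.17 and 1.81 RPKM in Zscan4 OE, against 1.75 and 1.92 RPKM in controls, and the 919 autosomal rows had 3.89 and 2.39 RPKM in Zscan4 OE, against 3.04 and 2.26 RPKM in controls. The ratio of X to autosomes was 0.559 and 0.758 in Zscan4 OE, and 0.575 and 0.850 in controls, below 1 in 4 of 4 libraries (exact sign-flip p = 0.125, the smallest possible). J1 is a male line, but the cause of this ratio, such as X copy number or distance from starts, was not tested.

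Registry numbers follow the order in which microRNAs were described. The 405 rows numbered under 1000 had 3.65 and 2.01 RPKM in Zscan4 OE, against 2.35 and 2.34 RPKM in controls. The 161 rows numbered between these and 5000 had 4.16 and 2.81 RPKM in Zscan4 OE, against 3.95 and 2.19 RPKM in controls. The 418 rows numbered 5000 or more had 3.84 and 2.54 RPKM in Zscan4 OE, against 3.27 and 2.13 RPKM in controls. Mir320, which lies 39 bp from the span of Polr3d, had 7 and 6 reads in Zscan4 OE, against 1 and 0 in controls, and was named after its values were seen.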
